A study of Mus musculus with 12 samples.

Results

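The genes described are 32 that macrophages and other leukocytes express, measured in the newborn mouse bladder. Each was represented by the probe set of highest mean among those that named that gene alone, out of 18193 genes with such a probe set. Together the 32 genes had 56 probe sets. The chosen probe sets of 28 genes lay above the filter on low values (a mean of log2 8.02 over the 12 arrays) and were tested. Those of Cd52, Trem2, Ccr2 and Hcls1 lay below it and are given apart.

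The study asked what a fluorescent reporter under a smooth muscle promoter does to the expression profile of the bladder. RNA from 12 bladders, each the whole organ of 1 FVB/N mouse taken on postnatal day 1, was amplified once and hybridised to 12 one-colour Affymetrix arrays. Every animal is labelled male. In SMGA/EGFP mice (3 arrays) the smooth muscle gamma actin promoter drives a green fluorescent protein. In SMAA/EYFP mice (3 arrays) the smooth muscle alpha actin promoter drives a yellow fluorescent protein. Wild-type mice (6 arrays) carry neither. Reporter litters came from FVB/N mothers and transgenic fathers, so genotype, father and litter cannot be told apart. Nothing in the labels says that the arrays of a group came from separate litters, so the p-values measure the spread between these arrays.

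Macrophages settle in most organs before birth and live there under the control of a growth factor that binds the receptor encoded by Csf1r. The transcription factor PU.1, encoded by Spi1, binds purine-rich DNA with the core letters GAGGAA and is needed for the macrophage and several other leukocyte lineages. Macrophages take up dying cells and microbes through scavenger, complement and antibody receptors, digest them in lysosomes, and release chemokines that draw in other leukocytes.

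The bases before the transcription start of member genes are shown because PU.1 is a known regulator of macrophage genes. RefSeq promoter entries (build GRCm38.p6) existed for 22 of the 32 genes, with 27 entries in all, and the 250 bases before each start were searched on both strands for 7 letter strings. The printed set holds Ptprc (the first of its entries), Lyz2, Ctss and Cx3cr1, which are among the genes given by array below, and Trem2, whose difference ran the other way. Capitals mark the strings GAGGAA or AGGAAGT on either strand, and each sequence ends at the base before the start.
Ptprc, chr1:138175306-138175555, minus strand: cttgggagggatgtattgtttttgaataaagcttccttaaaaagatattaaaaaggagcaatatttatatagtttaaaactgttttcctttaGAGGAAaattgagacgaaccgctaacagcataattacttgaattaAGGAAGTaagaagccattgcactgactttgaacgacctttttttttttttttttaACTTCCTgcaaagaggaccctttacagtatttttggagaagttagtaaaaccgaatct
Lyz2, chr10:117282273-117282522, minus strand: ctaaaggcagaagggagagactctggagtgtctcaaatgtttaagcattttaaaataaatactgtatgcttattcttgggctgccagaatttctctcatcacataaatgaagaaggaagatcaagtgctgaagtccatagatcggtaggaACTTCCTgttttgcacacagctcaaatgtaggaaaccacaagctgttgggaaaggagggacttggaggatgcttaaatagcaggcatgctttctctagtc
Ctss, chr3:95526536-95526785, plus strand: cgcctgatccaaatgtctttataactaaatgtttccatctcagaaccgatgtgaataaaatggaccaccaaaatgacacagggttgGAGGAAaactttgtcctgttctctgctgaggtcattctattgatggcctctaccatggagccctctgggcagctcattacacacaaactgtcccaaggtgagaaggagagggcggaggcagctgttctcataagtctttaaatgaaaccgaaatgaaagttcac
Cx3cr1, chr9:120068297-120068546, minus strand: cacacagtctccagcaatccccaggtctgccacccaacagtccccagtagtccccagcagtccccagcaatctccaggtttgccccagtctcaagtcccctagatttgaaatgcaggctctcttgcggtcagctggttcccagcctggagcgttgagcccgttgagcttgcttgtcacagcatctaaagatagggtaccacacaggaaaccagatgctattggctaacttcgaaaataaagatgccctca
Trem2, chr17:48346151-48346400, plus strand: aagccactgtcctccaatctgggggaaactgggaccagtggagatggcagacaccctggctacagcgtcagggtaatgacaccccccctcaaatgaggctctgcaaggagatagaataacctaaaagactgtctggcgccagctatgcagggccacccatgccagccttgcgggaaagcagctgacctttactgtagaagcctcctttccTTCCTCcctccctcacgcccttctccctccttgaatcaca

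In Ptprc the strings began at positions -158, -113 and -58 counted from the start, in Lyz2 at -100, in Ctss at -164 and in Trem2 at -40, and Cx3cr1 held neither string in this window. GAGGAA stood in 13 of the 27 member promoters (48.15%), against 23.25% of all 32851 promoters of that length. AGGAAGT, another form of the purine-rich core that overlaps the first, stood in 9 (33.33%), against 7.686% of all promoters. Counted by gene, GAGGAA stood in 12 and AGGAAGT in 8 of the 22 genes. The windows of the 2 Ptprc entries overlap, so 1 AGGAAGT match is counted in both. The longer forms GAGGAAG and GAGGAAGT, which contain GAGGAA, stood in 29.63% and 7.407% of the member promoters, against 10.61% and 2.441% of all. The AP-1 string TGANTCA stood in 14.81% of member promoters, against 6.749% of all. The TATA string TATAAA stood in 14.81%, against 12.37% of all, and the C/EBP palindrome TTGCGCAA in 0 of 27, against 0.1644% of all. Such a match is a description of the letters and not a binding site.

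Some facts of the arrays touch all results. The 12 arrays correlated at 0.948 or more with each other, none were identical in value, and median intensity ran from 229.39 to 305.94. The database record numbers in the labels form 2 runs: SMGA/EGFP and wild type 1 to 3 are in the first run, SMAA/EYFP and wild type 4 to 6 in the second. No label calls a run a batch. Wild type 4 did not have the profile of a male animal: its Xist intensity was 29604, while those of Kdm5d and Uty were 28.0 and 48.6, and the members' medians without it are given at the end. The tissue label was borne out by 10 of 10 urothelium genes and 9 of 9 smooth muscle genes above the filter. In whole bladder, fewer cells of a type and less RNA per cell cannot be told apart.

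No member passed the threshold in SMGA/EGFP against wild type (limma, Benjamini-Hochberg adjusted p below 0.05), where 14 of 22518 probe sets did (0.0622%). The differences nevertheless leaned one way. Of the 28 genes tested, 27 had a log2 difference below 0 and 1 above 0, with a median of -0.22, while 52.9% of all probe sets tested were below 0 with a median of -0.01. The split moved with the processing. It was 23 below and 5 above without quantile normalization, 28 and 0 with arrays centred on their median, and 21 and 7 without SMGA/EGFP 3. Without the filter it was 28 and 4 over all 32 genes. At an unadjusted p under 0.05, 6 of the genes tested were lower (4.16% of all probe sets were) and 0 higher (2.77% of all probe sets were). Without the filter 6 were lower and 1 higher, where 2584 of 45037 probe sets were either. The 1 higher was Trem2, whose unadjusted p of 0.00182 (limma) was the smallest of the 32 genes. The arrays of the groups did not overlap for 3 of the genes tested, all lower in SMGA/EGFP (10.7%, against 1.61% of all probe sets). Members expressed by the same cells are not replicates of each other, so these counts are a description.

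**Figure D1:**
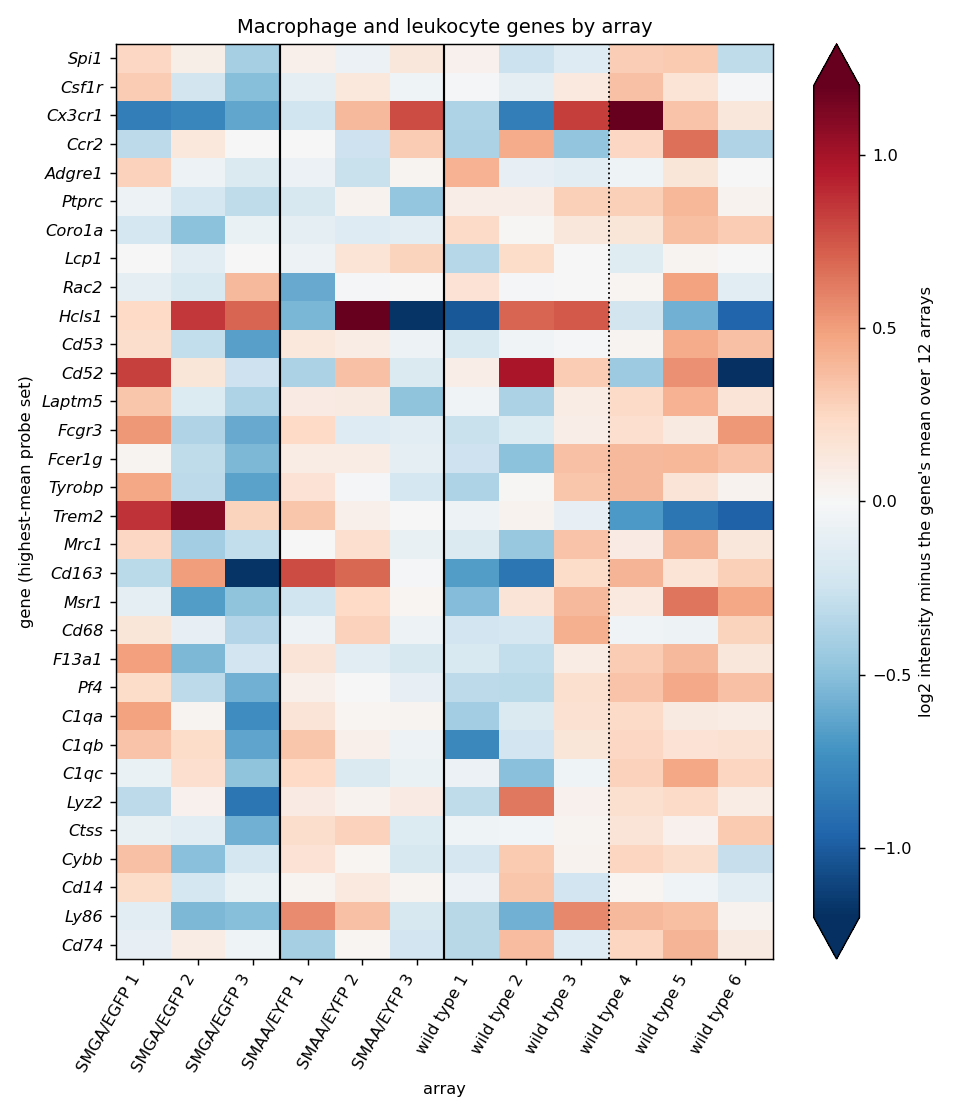
Log2 intensity of each of the 32 genes (rows, grouped by role) on each of the 12 arrays (columns), as the difference from the gene's own mean over all arrays, with solid lines between groups and a dotted line between wild type 1 to 3 and 4 to 6. SMGA/EGFP 3 is below the mean for 28 of the 32 genes, while SMGA/EGFP 1 is above the mean for 19 of 32.

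Values of single genes are on the quantile-normalized log2 scale, as SMGA/EGFP arrays 1, 2 and 3 and as lowest, median and highest of the 6 wild-type arrays. Differences carry their standard error, and group means their SD. Coro1a, which encodes an actin-regulating coronin of leukocytes, was at log2 8.94, 8.66 and 9.07 in SMGA/EGFP, against 9.16, 9.34 and 9.51 in wild type. All 3 SMGA/EGFP arrays lay below all 6 wild-type arrays. The difference was -0.46 ± 0.14 (SE; 0.728-fold; adjusted p = 0.653, limma).

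Ptprc, the phosphatase on the surface of nearly all leukocytes, was at 9.38, 9.23 and 9.14 in SMGA/EGFP, against 9.49, 9.62 and 9.85 in wild type. The groups did not overlap here either. The difference was -0.39 ± 0.15 (adjusted p = 0.709, limma). As deposited, without quantile normalization, SMGA/EGFP 1 at an intensity of 719 lay above wild type 6 at 653, so for Ptprc the gap depends on the scaling. For Coro1a the highest SMGA/EGFP array stood at 546 as deposited and the lowest wild-type array at 576.

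Among lysosome and antimicrobial genes, Ctss, cathepsin S, which trims peptides for presentation, was at 11.63, 11.58 and 11.13 in SMGA/EGFP, against 11.66, 11.76 and 12.03 in wild type. Its arrays did not overlap, and the difference was -0.34 ± 0.14 (adjusted p = 0.712, limma). It was -0.19 without SMGA/EGFP 3, the lowest array.

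Lyz2, lysozyme of the myeloid lineage, was at 10.64, 11.01 and 10.09 in SMGA/EGFP, against 10.65, 11.10 and 11.59 in wild type. SMGA/EGFP 3 was again lowest, and SMGA/EGFP 2 lay within the wild-type range. The difference was -0.52 ± 0.20 (adjusted p = 0.709, limma) and -0.28 without SMGA/EGFP 3. Cybb, the membrane subunit of the phagocyte oxidase, averaged 8.84 ± 0.44 in SMGA/EGFP, 8.96 ± 0.19 in SMAA/EYFP and 9.02 ± 0.25 in wild type, a difference of -0.18 ± 0.21 for SMGA/EGFP. Laptm5, a lysosomal membrane protein of blood cells, averaged 9.93 ± 0.36 in SMGA/EGFP, 9.90 ± 0.34 in SMAA/EYFP and 10.07 ± 0.27 in wild type, a difference of -0.14 ± 0.20. Neither difference exceeded its error. The other Laptm5 probe sets above the filter were at 0.13 ± 0.19 and -0.03 ± 0.22.

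Among surface receptors, Cx3cr1, the receptor for fractalkine, had the largest difference of the members tested. It was at 8.22, 8.26 and 8.42 in SMGA/EGFP, against 8.22, 9.29 and 10.25 in wild type. The 3 SMGA/EGFP arrays were close together (SD 0.10), while the 6 wild-type arrays were spread widely (SD 0.75), and wild type 2 was as low as SMGA/EGFP. The difference was -0.96 ± 0.37 (adjusted p = 0.709, limma), and -0.77 without wild type 4, the highest array. Its other probe set, below the filter, was at -0.56 ± 0.39.

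Csf1r, the growth factor receptor, was at 12.85, 12.33 and 12.03 in SMGA/EGFP, against 12.43, 12.59 and 12.90 in wild type, so SMGA/EGFP 2 and 3 lay below all wild-type arrays while SMGA/EGFP 1 lay near the top of their range. Its difference was -0.22 ± 0.15. Its other probe sets, also above the filter, were at -0.24 ± 0.18 and 0.02 ± 0.17, so the sign depends on the probe set. Adgre1, an adhesion receptor used to mark mouse macrophages, averaged 9.84 ± 0.23 in SMGA/EGFP, 9.72 ± 0.15 in SMAA/EYFP and 9.87 ± 0.21 in wild type, a difference of -0.03 ± 0.15. Spi1, the gene of PU.1, averaged 8.02 ± 0.34 in SMGA/EGFP, 8.09 ± 0.10 in SMAA/EYFP and 8.04 ± 0.27 in wild type (-0.02 ± 0.22).

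Msr1, a class A scavenger receptor that takes up modified lipoproteins, was at 9.23, 8.68 and 8.87 in SMGA/EGFP, against 8.83, 9.62 and 9.99 in wild type. Only wild type 1 reached down into the SMGA/EGFP range. The difference was -0.63 ± 0.23 (adjusted p = 0.709, limma). The other uptake genes had differences closer to 0. Mrc1, the mannose receptor, averaged 12.30 ± 0.35 in SMGA/EGFP, 12.49 ± 0.15 in SMAA/EYFP and 12.51 ± 0.33 in wild type (-0.21 ± 0.19). Cd163, which takes up haemoglobin bound to haptoglobin, averaged 9.37 ± 0.84 in SMGA/EGFP, 10.20 ± 0.43 in SMAA/EYFP and 9.63 ± 0.54 in wild type (-0.26 ± 0.36). Cd163 varied by over 1 log2 unit within SMGA/EGFP. Cd68, a lysosomal glycoprotein, averaged 8.90 ± 0.25 in SMGA/EGFP, 9.05 ± 0.20 in SMAA/EYFP and 9.02 ± 0.26 in wild type (-0.13 ± 0.19).

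The 3 complement genes lay near 0. C1qa, C1qb and C1qc encode the chains of the protein that recognises targets of the classical complement pathway, and they were at -0.08 ± 0.22, 0.02 ± 0.25 and -0.19 ± 0.21. C1qa averaged 10.23 ± 0.62 in SMGA/EGFP, 10.38 ± 0.07 in SMAA/EYFP and 10.32 ± 0.25 in wild type. C1qb averaged 9.91 ± 0.53 in SMGA/EGFP, 10.05 ± 0.20 in SMAA/EYFP and 9.89 ± 0.40 in wild type. C1qc averaged 9.25 ± 0.34 in SMGA/EGFP, 9.37 ± 0.22 in SMAA/EYFP and 9.44 ± 0.35 in wild type. Within SMGA/EGFP the C1qa arrays ran from 9.57 to 10.79, wider than the 9.89 to 10.54 of wild type. The other probe sets of C1qb, also above the filter, were at -0.29 ± 0.21 and -0.03 ± 0.29, so its sign depends on the probe set.

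The antibody receptor and signalling chain genes are given next. Fcgr3, a receptor for immunoglobulin G, averaged 10.48 ± 0.59 in SMGA/EGFP, 10.62 ± 0.22 in SMAA/EYFP and 10.71 ± 0.28 in wild type (-0.23 ± 0.23). The signalling chain gene Fcer1g averaged 9.82 ± 0.29 in SMGA/EGFP, 10.12 ± 0.11 in SMAA/EYFP and 10.22 ± 0.39 in wild type (-0.39 ± 0.21), and its relative Tyrobp averaged 10.51 ± 0.57 in SMGA/EGFP, 10.65 ± 0.19 in SMAA/EYFP and 10.77 ± 0.27 in wild type (-0.26 ± 0.22). On all 3, SMGA/EGFP 1 was the highest and SMGA/EGFP 3 the lowest of the SMGA/EGFP arrays. F13a1, a clotting factor subunit that tissue macrophages make, averaged 13.08 ± 0.53 in SMGA/EGFP, 13.11 ± 0.19 in SMAA/EYFP and 13.24 ± 0.27 in wild type (-0.16 ± 0.20). Pf4, a chemokine of platelets and some macrophages, averaged 12.70 ± 0.41 in SMGA/EGFP, 12.91 ± 0.08 in SMAA/EYFP and 13.04 ± 0.35 in wild type (-0.34 ± 0.20).

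Of the remaining members, Ly86, a partner of a Toll-like receptor homologue, averaged 8.32 ± 0.23 in SMGA/EGFP, 8.95 ± 0.39 in SMAA/EYFP and 8.79 ± 0.45 in wild type (-0.47 ± 0.26). Cd53, a leukocyte tetraspanin, averaged 9.93 ± 0.44 in SMGA/EGFP, 10.22 ± 0.10 in SMAA/EYFP and 10.27 ± 0.24 in wild type (-0.34 ± 0.19). Both had overlapping groups. Cd14, the co-receptor for lipopolysaccharide, averaged 10.27 ± 0.22 in SMGA/EGFP, 10.36 ± 0.05 in SMAA/EYFP and 10.27 ± 0.19 in wild type (-0.01 ± 0.14). The actin-bundling gene Lcp1 averaged 10.84 ± 0.08 in SMGA/EGFP, 11.01 ± 0.17 in SMAA/EYFP and 10.85 ± 0.19 in wild type, a difference that rounds to 0. These genes showed no gap between groups. The GTPase gene Rac2 of blood cells averaged 8.26 ± 0.31 in SMGA/EGFP, 8.02 ± 0.34 in SMAA/EYFP and 8.31 ± 0.22 in wild type (-0.05 ± 0.21). Cd74, the invariant chain of class II antigen presentation, averaged 8.83 ± 0.09 in SMGA/EGFP, 8.65 ± 0.21 in SMAA/EYFP and 8.96 ± 0.30 in wild type (-0.13 ± 0.19).

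**Figure D2:**
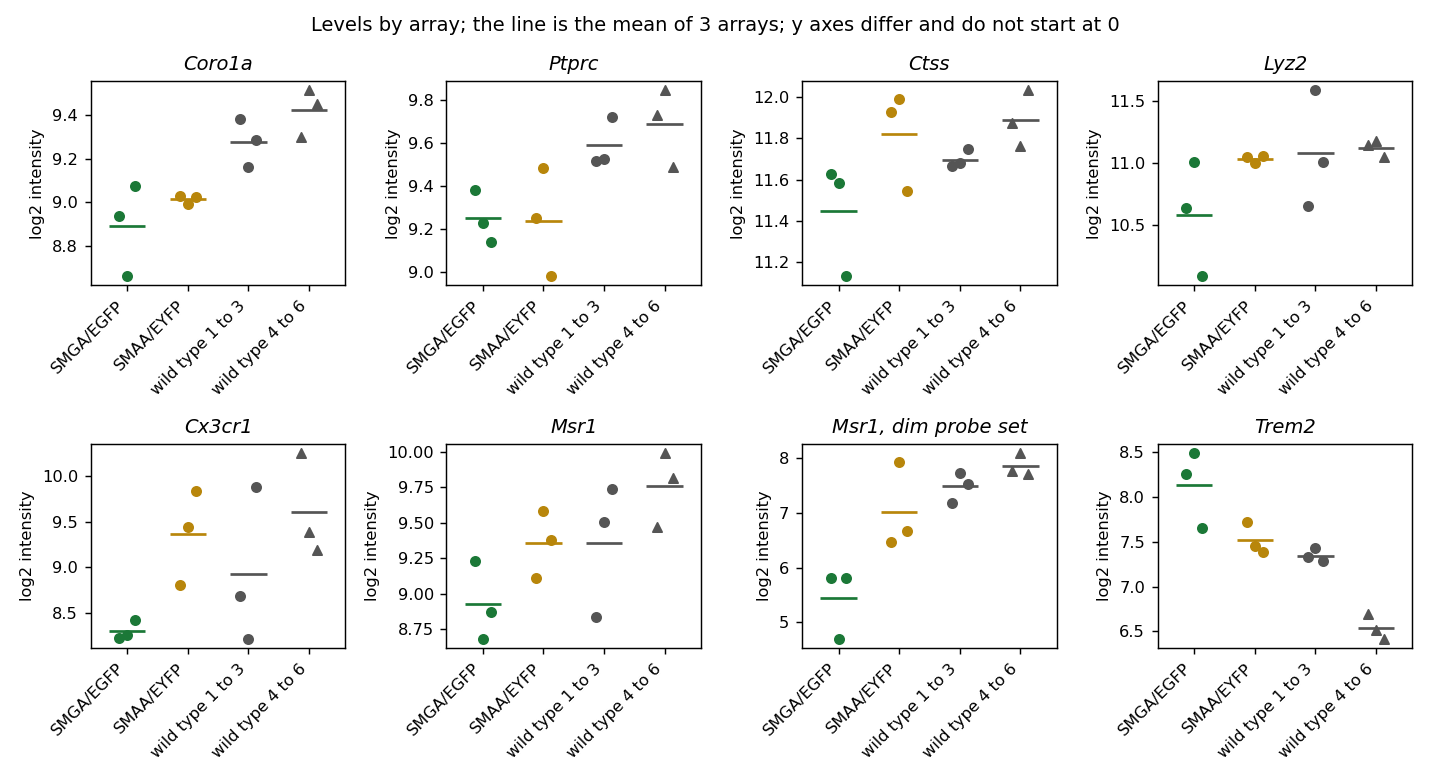
Log2 intensity of 7 member genes on each array (points), with Msr1 shown by both its brightest probe set and a dim one below the filter. Lines are means of 3 arrays, triangles are wild type 4 to 6, and the Coro1a points of both reporter groups lie below all wild-type points.

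By the median deviation of these genes, SMGA/EGFP 3 lay below all wild-type arrays, and SMGA/EGFP 1 and 2 lay within their range. The median deviation of the 32 genes from their own means was 0.21, -0.17 and -0.38 on SMGA/EGFP 1 to 3, against -0.21 to 0.33 on the wild-type arrays. Wild type 1, at -0.21, was lower than SMGA/EGFP 2. SMGA/EGFP 3 held the lowest value of the 12 arrays for 12 of the 32 genes and the highest for none. SMGA/EGFP 1 held the lowest for 0 and the highest for 5. Without SMGA/EGFP 1 the median difference from wild type was -0.43, and without SMGA/EGFP 3 it was -0.11. The summed deposited intensity of the 32 genes was 62905, 44657 and 40224 on SMGA/EGFP 1 to 3, and 47253 to 65194 in wild type.

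**Figure D3:**
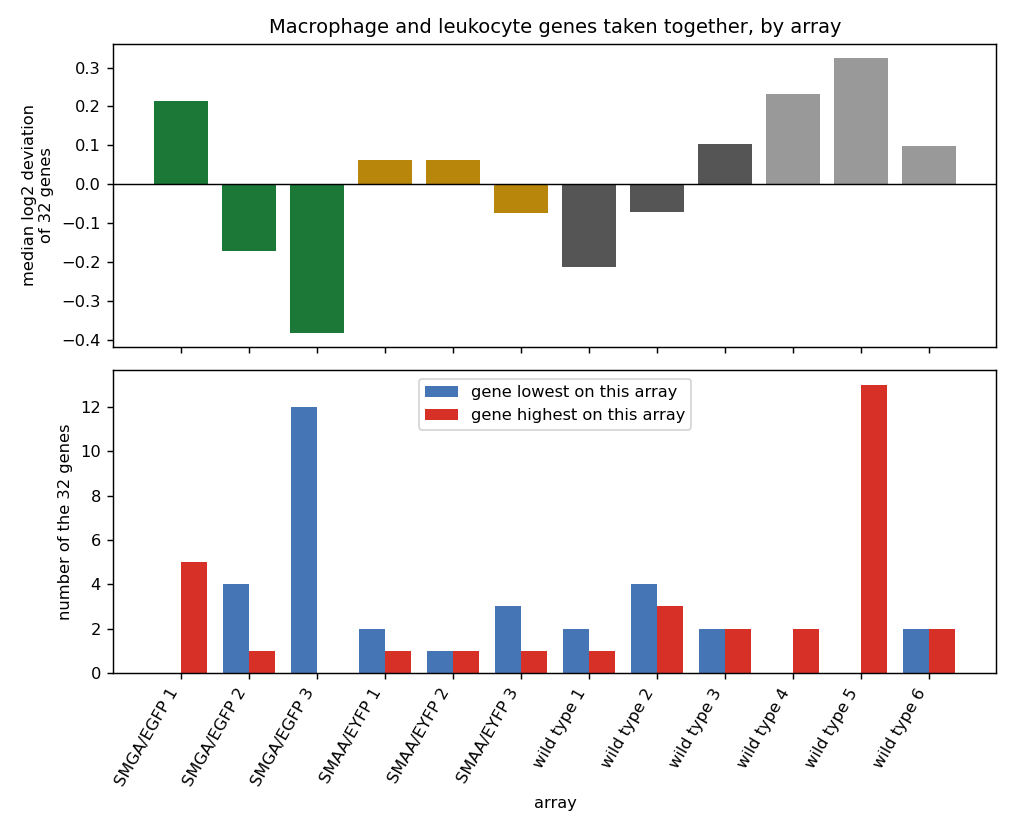
Upper panel: median log2 deviation of the 32 genes from their own means on each array. Lower panel: number of genes with their lowest (blue) or highest (red) value of the 12 on that array. SMGA/EGFP 3 holds 12 lowest values and wild type 5 holds 13 highest values.

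Wild-type arrays of the 2 record runs also stood apart in these genes. Wild type 1 to 3 were below wild type 4 to 6 for 26 of 28 genes, with a median of -0.29 (all probe sets -0.02, 54.4% below 0). No member passed there (0 of 22518 probe sets did, 0%; 1836 had an unadjusted p under 0.05, 8.15%), and 3 were lower at an unadjusted p under 0.05 (3.85% of all probe sets). The arrays did not overlap for 8 genes, all lower in wild type 1 to 3 (28.6%, against 7.46% of all probe sets). They were C1qb, C1qc, Pf4, F13a1, Fcgr3, Laptm5, Cd53 and Ctss.

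Pf4 was at 12.61, 12.60 and 13.11 in wild type 1 to 3, against 13.27, 13.38 and 13.28 in wild type 4 to 6 (-0.54 ± 0.18, adjusted p = 0.475, limma). C1qc was at 9.31, 8.87 and 9.32 in wild type 1 to 3, against 9.66, 9.84 and 9.64 in wild type 4 to 6 (-0.54 ± 0.21, adjusted p = 0.546, limma). Fcer1g, with 9.85, 9.60 and 10.44 in wild type 1 to 3 and 10.49, 10.49 and 10.43 in wild type 4 to 6, was at -0.51 ± 0.21 (adjusted p = 0.576, limma) and overlapped by wild type 3. Of the 6 genes named in SMGA/EGFP against wild type, Cx3cr1 was at -0.68 ± 0.39 between the runs, Msr1 at -0.40 ± 0.25, Ctss at -0.19 ± 0.16, Coro1a at -0.14 ± 0.16, Ptprc at -0.10 ± 0.17 and Lyz2 at -0.04 ± 0.24. Other lists stood apart between the runs as well, and their part in the result was not tested. All 6 mesothelial genes were lower in wild type 1 to 3 (median -0.79, 5 without overlap), with a summed intensity of 17676 to 20477 in wild type 1 to 3 and 23708 to 27332 in wild type 4 to 6. All 7 genes of neurons and Schwann cells were higher in wild type 1 to 3 (median 1.25, 4 without overlap), with sums of 12128 to 31028 in wild type 1 to 3 and 8864 to 14160 in wild type 4 to 6. Of all probe sets, 45.6% were higher in wild type 1 to 3. Without overlap, 6.07% of all probe sets were higher there and 7.46% lower.

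With the run as a term in the fit, SMGA/EGFP is set against wild type 1 to 3. The median over the 28 genes was then -0.07, with 20 below 0 (71.4%, against 51.5% of all probe sets). No member passed (0.0444% of all probe sets did), 1 was lower at an unadjusted p under 0.05 (1.65% of all probe sets), and the arrays did not overlap for the same 3 genes, Coro1a, Ptprc and Ctss (10.7%, against 3.18% of all probe sets lower). Coro1a was at -0.39 ± 0.16, Ptprc at -0.34 ± 0.17, Lyz2 at -0.50 ± 0.24, Ctss at -0.25 ± 0.16, Msr1 at -0.43 ± 0.25 and Cx3cr1 at -0.62 ± 0.39. The complement genes C1qa, C1qb and C1qc were at 0.06 ± 0.25, 0.26 ± 0.26 and 0.09 ± 0.21. Fcgr3 was at -0.03 ± 0.25, Fcer1g at -0.14 ± 0.21 and Tyrobp at -0.16 ± 0.25. The part of the record run in the lean was not otherwise tested.

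**Figure D4:**
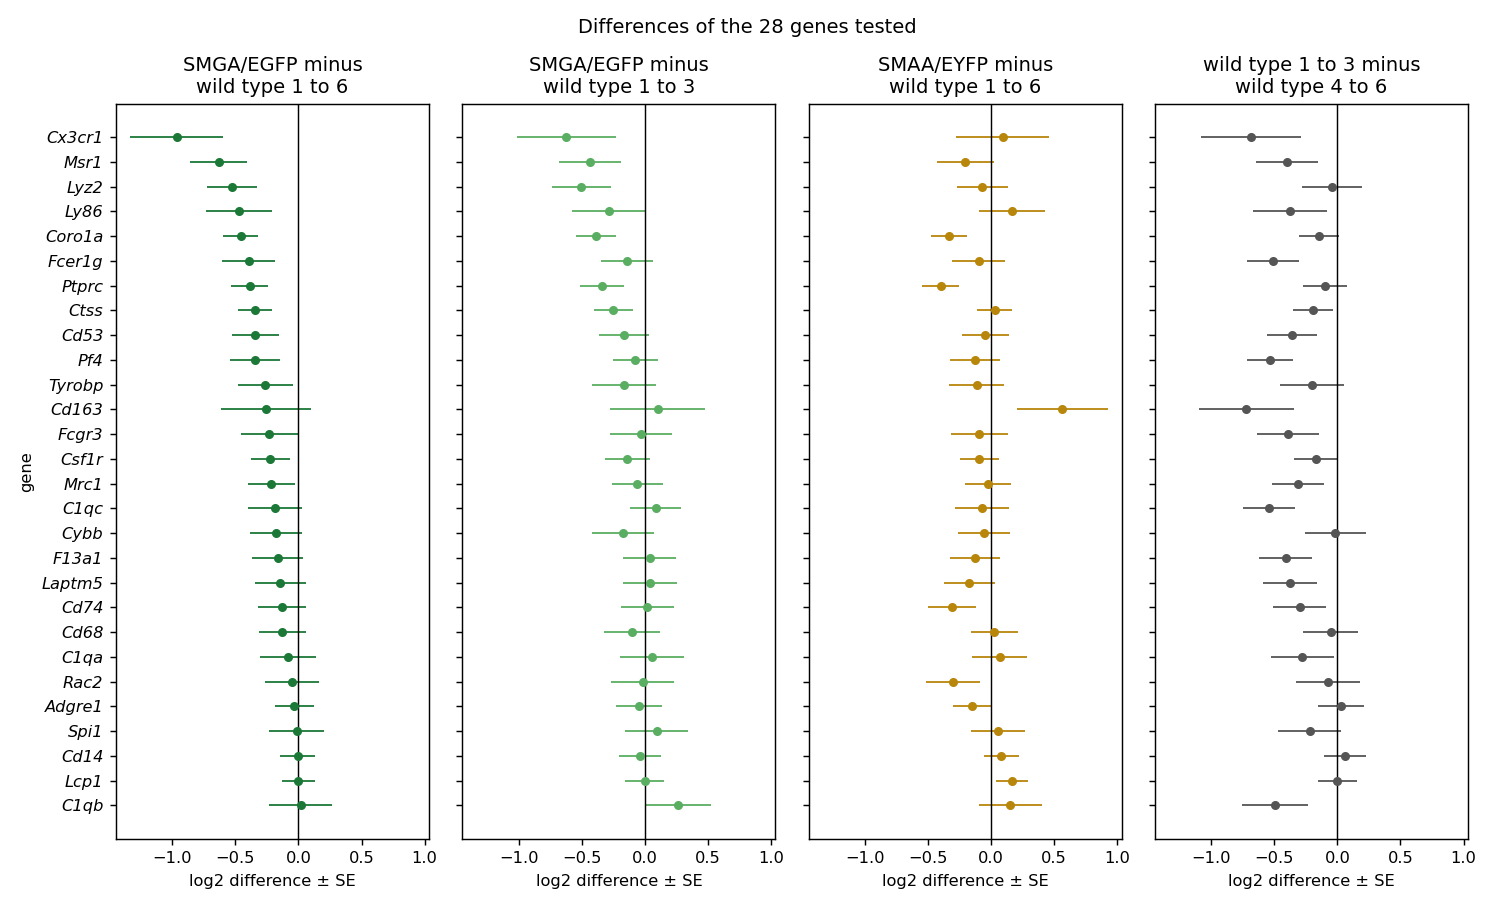
Log2 differences with their standard errors for the 28 genes tested (rows), in SMGA/EGFP minus all wild type, SMGA/EGFP minus wild type 1 to 3, SMAA/EYFP minus all wild type, and wild type 1 to 3 minus wild type 4 to 6. Coro1a and Ptprc lie left of 0 by more than 2 SE in SMGA/EGFP and SMAA/EYFP against all wild type, and most genes lie left of 0 in the comparison of wild-type arrays.

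In SMAA/EYFP against the same wild-type arrays the members leaned lower by less than in SMGA/EGFP. No member passed, and no probe set did (0 of 22518, 0%; 1082 had an unadjusted p under 0.05, 4.81%). Of the 28 genes, 18 were below 0 (49.2% of all probe sets were) and 10 above, with a median of -0.07. At an unadjusted p under 0.05, 2 genes were lower (7.14%, against 2.14% of all probe sets), and the same 2, Ptprc and Coro1a, were the ones whose arrays did not overlap (7.14%, against 1.27%).

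Coro1a was at 9.03, 8.99 and 9.02 in SMAA/EYFP, below the wild-type range given above, with a difference of -0.33 ± 0.14 (adjusted p = 0.991, limma). Ptprc was at 9.25, 9.49 and 8.98 in SMAA/EYFP, and its highest array and the lowest wild-type array both read 9.49, so the groups only just parted. As deposited they overlapped, since SMAA/EYFP 2 stood at 705. Its difference was -0.40 ± 0.15 (adjusted p = 0.991, limma). Cd74 was at 8.45, 8.88 and 8.62 in SMAA/EYFP, against 8.52, 9.03 and 9.26 in wild type, and overlapped (-0.31 ± 0.19, adjusted p = 0.991, limma). Cd163, with 10.49, 10.40 and 9.70 in SMAA/EYFP, was at 0.56 ± 0.36, the largest difference above 0 among the members tested. Cx3cr1 was at 8.81, 9.44 and 9.83 in SMAA/EYFP, within the wild-type range (0.09 ± 0.37).

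Set against wild type 4 to 6 only, by the same run term, SMAA/EYFP leaned lower. The median was -0.20, with 25 of 28 genes below 0 (89.3%, against 52% of all probe sets). None passed (0% of all probe sets did), 4 were lower at an unadjusted p under 0.05 (14.3%, against 2.02%), and the arrays did not overlap for 7 genes lower (25%, against 6.31%) and 1 higher, Cd14 (3.57%, against 5.61%). Coro1a was at -0.41 ± 0.16, Ptprc at -0.45 ± 0.17, Pf4 at -0.40 ± 0.18 and Cd74 at -0.46 ± 0.21. Cd163 was at 0.20 ± 0.38 and Cx3cr1 at -0.25 ± 0.39 in this fit. The median of SMGA/EGFP with the run term, given above, was closer to 0, at -0.07.

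Taken as the mean of both reporter groups against wild type, which holds both runs on each side, 23 of 28 genes were below 0 (52.2% of all probe sets were), with a median of -0.16. No member passed, where 1 of 22518 probe sets did (0.00444%). At an unadjusted p under 0.05, 0 of the genes tested were higher (2.24% of all probe sets were) and 3 were lower (10.7%, against 1.94%). These 3 were Coro1a at -0.40 ± 0.11, Ptprc at -0.39 ± 0.12 and Msr1 at -0.42 ± 0.19 (adjusted p = 0.996 each, limma). Trem2, which lay below the filter and was not tested here, ran the other way, at 0.88 ± 0.25 in the fit without a filter. For Coro1a and Ptprc all 6 reporter arrays lay below all 6 wild-type arrays (7.14% of members, against 0.107% of all probe sets lower). For Ptprc this held only after quantile normalization. As deposited, SMGA/EGFP 1 at 719 and SMAA/EYFP 2 at 705 lay above wild type 6 at 653. As deposited, the Coro1a intensity was 384 to 546 in SMGA/EGFP, 458 to 498 in SMAA/EYFP and 576 to 700 in wild type. The other 2 probe sets of Coro1a did not show this: for both reporter groups they were at 0.10 ± 0.27 and -0.06 ± 0.43, with overlapping groups. The first of them lay above the filter (mean of log2 8.62) and the second below it (5.64). They were at 0.15 ± 0.33 and -0.55 ± 0.52 in SMGA/EGFP against wild type, and at 0.05 ± 0.33 and 0.42 ± 0.52 in SMAA/EYFP against wild type. The second Ptprc probe set was at -0.18 ± 0.38 for both reporter groups, at -0.43 ± 0.47 in SMGA/EGFP and at 0.08 ± 0.47 in SMAA/EYFP, and its groups overlapped too. It lay below the filter, with a mean of log2 5.11, near the lowest level of 4, so it could show little of a drop. These comparisons share the wild-type arrays, so they are not independent of each other.

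Between the reporter groups, SMGA/EGFP minus SMAA/EYFP, record run and reporter cannot be told apart from the 6 reporter arrays alone, and the run term rests on the wild-type arrays. No member passed, where 18 of 22518 probe sets did (0.0799%). The median was -0.14 with 23 of 28 genes below 0 (53.9% of all probe sets were), and with the run term it was 0.07 with 10 below 0 (49.9%). At an unadjusted p under 0.05, 2 genes were lower (7.14%, against 5.12% of all probe sets). Cx3cr1 was at -1.06 ± 0.43 (adjusted p = 0.494, limma) and was the 1 member whose arrays did not overlap (3.57%, against 8.06% of all probe sets lower). Ctss was at -0.37 ± 0.16 (adjusted p = 0.514, limma). Ly86, at 8.58, 8.18 and 8.20 in SMGA/EGFP and 9.28, 9.06 and 8.51 in SMAA/EYFP, was at -0.63 ± 0.30 (adjusted p = 0.549, limma). With the run term Cx3cr1 was at -0.37 ± 0.56, Ctss at -0.18 ± 0.22 and Ly86 at -0.26 ± 0.42, and 0 members were lower at an unadjusted p under 0.05 (1.5% of all probe sets were).

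The values of the 4 members below the filter come from the fit without a filter. Trem2, a lipid-sensing receptor that signals through the chain encoded by Tyrobp, was at 8.25, 8.49 and 7.66 in SMGA/EGFP, 7.72, 7.45 and 7.39 in SMAA/EYFP, and 7.32, 7.43, 7.28, 6.69, 6.52 and 6.42 in wild type 1 to 6. All SMGA/EGFP arrays lay above all wild-type arrays, against 1.07% of all probe sets in that fit, and wild type 1 to 3 lay above wild type 4 to 6, against 6.33% of all probe sets. The difference of SMGA/EGFP from wild type was 1.19 ± 0.31 (adjusted p = 0.561, limma), and 0.79 ± 0.30 with the run as a term. In SMAA/EYFP against wild type Trem2 was at 0.57 ± 0.31, with overlapping groups. Its other probe set, with a mean of log2 5.28, was at -0.12 in SMGA/EGFP against wild type. Trem2 was the 1 member of these 4 whose groups stood apart in SMGA/EGFP against wild type. Ccr2, the receptor that draws monocytes from blood, averaged 6.89 ± 0.23 in SMGA/EGFP, 6.97 ± 0.28 in SMAA/EYFP and 6.98 ± 0.49 in wild type (-0.09 ± 0.32). Cd52, a small surface glycoprotein of leukocytes, averaged 7.71 ± 0.54 in SMGA/EGFP, 7.41 ± 0.38 in SMAA/EYFP and 7.39 ± 1.05 in wild type (0.33 ± 0.52). Hcls1, a cortactin-like protein of blood cells, averaged 6.45 ± 0.32 in SMGA/EGFP, 5.70 ± 1.27 in SMAA/EYFP and 5.63 ± 0.78 in wild type (0.82 ± 0.54). The groups overlapped for all 3.

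A second probe set of Msr1, below the filter and chosen here after its values were seen, differed more than the one that stands for the gene. It was at 5.81, 4.70 and 5.82 in SMGA/EGFP, 6.46, 7.91 and 6.66 in SMAA/EYFP, and 7.18, 7.73, 7.53, 7.76, 8.08 and 7.70 in wild type 1 to 6. The SMGA/EGFP arrays lay below all others, and 1.46% of all probe sets in that fit had SMGA/EGFP below all wild-type arrays. In it 0.0289% passed. As deposited the SMGA/EGFP intensities were 48.2, 10.4 and 36.9, near the pseudocount of 16 added before the log, so the size of the difference depends on it. The difference from wild type was -2.22 ± 0.38 (adjusted p = 0.0793 over 45037 probe sets, limma), and -2.04 ± 0.44 with the run as a term (adjusted p = 0.575). It was -2.82 with a pseudocount of 1 and -1.43 with one of 64 (adjusted p = 0.100 and 0.111), both chosen after seeing the data. The adjusted p ran from 0.0537 to 0.342 when single arrays were left out, so it did not pass in any of them. The remaining Msr1 probe sets, also below the filter, were at -1.27 ± 0.44, with no overlap, and -0.49 ± 0.34.

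Lists of genes of other cell types also leaned one way in SMGA/EGFP against wild type, where 52.9% of all probe sets were below 0 and 0.0622% passed, and their part in the result was not tested. Of 14 endothelial genes 13 were below 0 (median -0.20), among them Icam2 at -0.94 ± 0.29 and Tek at -0.34 ± 0.11, with a summed intensity of 21928 to 32573 in SMGA/EGFP, 23543 to 31752 in SMAA/EYFP and 29421 to 34491 in wild type. All 6 mesothelial genes, of the cell layer that covers the organ, were below 0 (median -1.74). Gpm6a, Lrrn4 and Muc16 passed, at -2.74 ± 0.34, -2.75 ± 0.36 and -2.06 ± 0.30 (limma, adjusted p = 0.00557, 0.00946 and 0.0167). Their list had a summed intensity of 15469 to 16972 in SMGA/EGFP, 26566 to 35459 in SMAA/EYFP and 17676 to 27332 in wild type. Urothelial genes ran the other way, with 10 of 10 above 0 (median 0.19) and sums of 175971 to 204682 in SMGA/EGFP and 146958 to 201076 in wild type. So did genes of neurons and Schwann cells, with 6 of 7 above 0 (median 0.70) and sums of 19991 to 28732 in SMGA/EGFP and 8864 to 31028 in wild type. In wild type 1 to 3, of the same record run, these sums were 12128 to 31028, a range that holds those of SMGA/EGFP. Of 9 smooth muscle genes 6 were below 0 (median -0.02), and all 7 cell cycle genes were below 0 (median -0.23). Of 9 mast cell genes 4 were tested and all 4 were below 0 (median -0.34), among them Cpa3 at -0.43 ± 0.15 and Cma1 at -0.39 ± 0.16, with sums of 2687 to 3629 in SMGA/EGFP and 3059 to 4129 in wild type. Few genes of other leukocytes were above the filter: 1 of 14 lymphocyte genes and 2 of 10 neutrophil genes were, with sums of 1015 to 1247 and 1072 to 2830 in SMGA/EGFP, and 938 to 1576 and 1307 to 4333 in wild type. Of the lymphocyte genes only Cd8a passed the filter, and the T cell gene Cd3e and the B cell genes Cd79a and Ms4a1 did not. In SMAA/EYFP against wild type, 49.2% of all probe sets were below 0. There 14 of 14 endothelial genes were also below 0 (median -0.26) and 10 of 10 urothelial genes above 0 (median 0.26). Of 6 mesothelial genes 5 were above 0 there (median 0.62).

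Without wild type 4, the median over the members was -0.17 in SMGA/EGFP against wild type (25 of 27 genes below 0), -0.04 in SMAA/EYFP against wild type, -0.13 for both reporter groups against wild type and -0.30 in wild type 1 to 3 against the rest of the wild type. In SMGA/EGFP against wild type, Coro1a was then at -0.47, Msr1 at -0.65, Ptprc at -0.37, Lyz2 at -0.52, Cx3cr1 at -0.77 and Ctss at -0.33. In SMAA/EYFP against wild type, Ptprc was at -0.38, Coro1a at -0.34 and Cd74 at -0.28. For both reporter groups, Coro1a was at -0.41, Ptprc at -0.37 and Msr1 at -0.44.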

How the data were processed

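Intensity values per probe set were deposited by the authors on a linear scale. They were made with GCOS per the submitters' processing notes, without a version, and the algorithm is not given in the sources used here. For arrays, their number limits the precision. Of 45101 probe sets, 64 controls were left out. After log2(intensity + 16) and quantile normalization, the 22518 probe sets above the median mean were tested with limma 3.58.1 in R 4.3.3 (intensity trend, all 12 arrays in the fit, two-sided, Benjamini-Hochberg over all tested). Errors are limma's moderated standard errors. The test was checked on simulated data. Symbols came from the platform annotation, and an update through RefSeq changed 0. Among the other 45037, 34945 probe sets listed 1 symbol, 932 several and 9160 none.

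Every member is named with its levels. Adjusted p-values are given for members past the threshold or, where fewer passed, those of smallest p, up to 6 in SMGA/EGFP against wild type and 3 in each other comparison. From marker lists, genes past the threshold and up to 2 of smallest p are named. Alternatives were other scalings, pseudocounts of 1 and 64, other filters, no trend, the mean over a gene's probe sets, array weights, fewer arrays, the record run as a term, and leaving out single arrays. The members and lists were chosen with earlier results of these data known.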

Additional observations from a re-analysis of the deposited data

Results flagged for a closer look

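None of the 32 members had an array in wild type, the only group of 4 or more, that stood apart by Dixon's test, which chance alone would trip in about 1 in 20 groups. Wild type 4 stood apart in genes outside the list: Xist was at an intensity of 29604, with the nearest wild-type array at 250, Kdm5d was at 28.0, with the nearest at 938, and Uty was at 48.6, with the nearest at 808. It is labelled male, and the medians over the members and the values of the genes named in the reporter comparisons with wild type are given without it above.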

How the results depend on the processing

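No member passed the threshold under any alternative run. The count of probe sets past it moved. In SMGA/EGFP against wild type it was 14, and 5 with the filter at the 75th percentile, 8 with only the arrays compared, 1 within the first record run (chosen after seeing the data), and 6 to 20 with single arrays left out. In SMAA/EYFP against wild type it was 0, and 5 with median centring and 5 with array weights. In SMGA/EGFP against SMAA/EYFP it was 18, and 10 with the 75th percentile filter, 2 with the run term, and 4 to 22 with single arrays left out. For both reporter groups it was 1, and 0 with median centring and 3 with array weights. In wild type 1 to 3 against 4 to 6 it was 0, and 1 without a filter, 175 with array weights, and 0 to 430 with single arrays left out (430 without wild type 3). The median over the members in SMGA/EGFP against wild type was -0.44 with array weights and ran from -0.43 (without SMGA/EGFP 1) to -0.11 (without SMGA/EGFP 3). In SMGA/EGFP against SMAA/EYFP it was 0.071 with the run term and -0.36 to -0.032 with single arrays left out. Median centring moved the median of all probe sets in that comparison to -0.12 and that of the members to -0.25. The cause of these shifts was not tested. No paired analysis was possible because the labels give no replicate numbers shared between groups.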

Other observations

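Other macrophage genes outside the 32 were also mostly below 0 in SMGA/EGFP against wild type. Of 39 with a probe set, 27 were tested and 0 passed, 20 were below 0 (52.9% of all probe sets were) and 7 above, with a median of -0.20, while wild type 1 to 3 against wild type 4 to 6 gave 22 of 27 below 0 and a median of -0.24. Cd300a, an inhibitory receptor of myeloid cells, was at -0.92 ± 0.27, and Sirpa, a receptor for the signal that spares healthy cells from uptake, at -0.38 ± 0.13. Others were picked after their values were seen. Itgb2, the beta chain of leukocyte integrins, was at -0.86 ± 0.28 and Irf8, a transcription factor of the monocyte lineage, at -0.55 ± 0.20. Mertk, a receptor for dying cells, was at 0.56 ± 0.19 in SMGA/EGFP and 0.54 ± 0.19 in SMAA/EYFP. Of 10 genes for factors that act on macrophages, 7 were tested in SMGA/EGFP against wild type and 0 passed. Below 0 were 5 of them and above 0 were 2, with a median of -0.19 and a highest difference of 0.55. The chemokines Ccl2 and Ccl12 were at -0.81 ± 0.28 and -0.71 ± 0.30, and Csf1, the growth factor bound by the receptor encoded by Csf1r, at -0.19 ± 0.22.

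Timd4, a receptor for phosphatidylserine on resident macrophages, lay below the filter and was picked after its values were seen. It was at 4.97, 4.68 and 5.19 in SMGA/EGFP, 7.38, 6.62 and 6.87 in SMAA/EYFP, and 6.27, 7.23, 6.83, 6.91, 7.37 and 7.12 in wild type 1 to 6. The 3 SMGA/EGFP arrays lay below all others. In the fit without a filter, 1.46% of all probe sets had SMGA/EGFP below all wild-type arrays, and 0.0289% passed. As deposited the SMGA/EGFP intensities of Timd4 were 17.9, 10.1 and 18.5, about the pseudocount of 16 added before the log, against 62.2 to 144 in wild type. The size of the difference therefore depends on the pseudocount. The difference of SMGA/EGFP from wild type was -2.01 ± 0.32 (adjusted p = 0.0543, limma without a filter), and among the fits that left out 1 array it passed only without wild type 1 (adjusted p = 0.0340). It was -2.81 with a pseudocount of 1 (adjusted p = 0.0317), and -1.13 with one of 64 (adjusted p = 0.111), alternatives chosen after seeing the data. Adding the record run to the fit gave -1.83 ± 0.37 (adjusted p = 0.411).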
